A study of Mus musculus with 5 samples.

Results

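The Myc genes Myc, Mycn and Mycl, their partner gene Max and the D-type cyclin genes Ccnd1, Ccnd2 and Ccnd3 were followed in the mouse forelimb at stage E11.5. All probe sets whose platform annotation named 1 of these 7 genes were taken, which gave 21 of the 45037 probe sets tested, with 1 probe set each for Myc and Max, 3 each for Mycn, Mycl, Ccnd1 and Ccnd3 and 7 for Ccnd2. The data are 2 arrays labelled double mutant, of genotype Sost-/-; Sostdc1-/-, and 3 arrays labelled wild type, all of the C57Bl/6 strain. Embryos were not pooled, per the series' design text, and each array was treated as 1 sample. RNA markers of sex, given below, go against 1 animal per array in the double mutants, so the 2 arrays may not stand for 2 single embryos. Sost and Sostdc1 encode related secreted proteins that restrain Wnt signalling, and the title of the study links both to digit number and to Gli3. The 7 genes were selected on the log2 values of these same 5 arrays, with the contrast of the genotypes known. Differences between the genotypes are therefore given for them as a description, with no p-value for any of them. Counts of calls on their probe sets come from the fit to all probe sets and serve only to be set beside the share over the whole array.

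Myc proteins are basic helix-loop-helix leucine zipper transcription factors that bind DNA as dimers with Max and drive genes for ribosome production, metabolism and cell growth. D-type cyclins activate the kinases Cdk4 and Cdk6, which phosphorylate the retinoblastoma protein and so free E2f factors to switch on genes of S phase. In the mouse, Mycn is the Myc gene needed for growth of the limb mesenchyme, and loss of 1 copy of it in people shortens the digits. Ccnd1 and Myc are known targets of Wnt signalling in human colon cancer cells, and Mycn, Ccnd1 and Ccnd2 respond to Hedgehog signalling in mouse cerebellar precursors.

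Promoter windows of Mycn and Max are shown because each holds letters read by factors of this network. RefSeq windows on GRCm38.p6 were matched for 4 of the 7 genes (5 windows, with 2 for Ccnd3) and were read over 260 bases, from 250 before the start to 10 after it. Both strands were searched for the E-box CACGTG, to which Myc and Max dimers bind, for the E2f-type letters TTTGGCGC and for the TCF/Lef core CTTTGA. The Mycn window lies at chr12:12941827-12942086 on the minus strand. Its capitals mark 2 copies of the E2f-type letters, beginning 183 and 168 bases before the start, and the reverse complement of the TCF/Lef core, beginning 13 bases before it.
Mycn: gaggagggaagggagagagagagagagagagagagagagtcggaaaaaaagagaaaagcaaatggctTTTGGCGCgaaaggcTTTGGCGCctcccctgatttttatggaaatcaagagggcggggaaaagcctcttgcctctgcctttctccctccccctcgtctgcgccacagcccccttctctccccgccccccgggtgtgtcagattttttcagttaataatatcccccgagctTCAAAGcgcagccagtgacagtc
The start used for Max lies inside the annotated gene, which reaches upstream to chr12:76962323. For Max only the 30 bases around the start are given, at chr12:76962239-76962268 on the minus strand, with the E-box, which begins 3 bases before the start, in capitals.
Max: ggcgcggtgagcccggtCACGTGttagggg
Of all 32851 windows of this length, 0.432% held the E2f-type letters, 14.3% the TCF/Lef core and 6.34% the E-box. The motifs did not overlap each other, and a match describes the letters only.

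Median array intensities lay between 42.12 and 44.36 in double mutants and between 39.41 and 41.68 in wild type, on the linear scale. Of the targeted genes, Sost on 1450179_at stood at 4.16 and 4.43 (log2 intensity) in double mutants, against 6.75, 6.19 and 6.47 in wild type. The dimmer Sost set 1421245_at stood at 3.64 and 4.02 in double mutants, against 5.13, 4.36 and 4.18 in wild type. That set was not called (limma adjusted p = 0.237). Sostdc1 on 1460250_at stood at 6.28 and 7.35 in double mutants, against 9.42, 8.94 and 9.15 in wild type. The other Sostdc1 set, 1449340_at, overlapped between the groups and was not lower in double mutants (limma adjusted p = 0.775). It stood at 8.90 and 8.96 there, against 8.75, 8.90 and 9.01 in wild type. Poly-A spike-ins, bacterial RNAs added before labelling, were brighter in double mutants, with Dap at 6.90 and 7.28 there and at 3.23 to 3.36 in wild type. The 3' minus 5' difference of the Gapdh controls, which follows RNA quality and labelling, was 0.27 and 0.16 in double mutants and −0.14 to −0.06 in wild type (two-sided exact permutation p = 0.1, the smallest possible with 10 splits). For the Actb controls it was 0.65 and 0.56 in double mutants and 0.20, 0.24 and 0.68 in wild type. Those groups overlapped (two-sided exact permutation p = 0.4). Genotype and sample preparation cannot be told apart in the differences that follow. Xist, the RNA of the inactive X chromosome, and the Y-linked gene Eif2s3y were both bright in each double mutant array (Xist at 12.37 and 11.75 on 1436936_s_at, Eif2s3y at 8.36 in both on 1417210_at), a pair not seen together in RNA of 1 XX or 1 XY embryo. This goes against the stated lack of pooling for both arrays labelled double mutant, and every comparison here rests on them. All 6 markers of limb mesenchyme were bright, from 9.58 to 12.41 over the arrays.

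Across the 21 probe sets, differences between the genotypes ran from −3.01 to 1.85 on the log2 scale (double mutant minus wild type), with a median of 0.15 against −0.01 over all probe sets. All values in this and the following paragraphs are log2 intensities or differences of them. With limma fitted to all 45037 probe sets and an adjusted p under 0.05, 6 of the 21 were called, 3 higher and 3 lower. Over all probe sets the called share was 18.2%, with 8.7% higher and 9.52% lower. The 2 groups of arrays did not overlap on 15 of the 21, 8 higher and 7 lower, where the share over all probe sets was 45.2% (22.1% higher and 23.0% lower). Nothing is read from these counts, since the genes were chosen with this contrast known. With each gene read on its brightest probe set, limma called 0 of the 7, where 14.7% of all genes were called. An unadjusted limma p under 0.05 was reached by 5 of the 7 and by 5214 of all 18193 genes. The groups were apart on 6 of these 7, 3 higher and 3 lower, against 43.2% of all genes (20.2% higher and 23.0% lower). Without wild type replicate 2 limma called 0 of the 21 and 0 of all 45037 probe sets. An unadjusted p under 0.05 was reached there by 8 of the 21 and by 11115 of all probe sets. Calls on the 21 numbered 4 without wild type replicate 1, against 2939 over all probe sets. They numbered 3 without wild type replicate 3, against 5108 over all probe sets. Leaving out either double mutant array leaves 1 in that group, so no count is given here for those fits. The calls on the 21 rest on both of those arrays. With the Gapdh 3' minus 5' difference as a covariate limma called 0 of the 21 and 0 of all probe sets. An unadjusted p under 0.05 was reached there by 1 of the 21 and by 4259 of all probe sets.

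**Figure D1:**
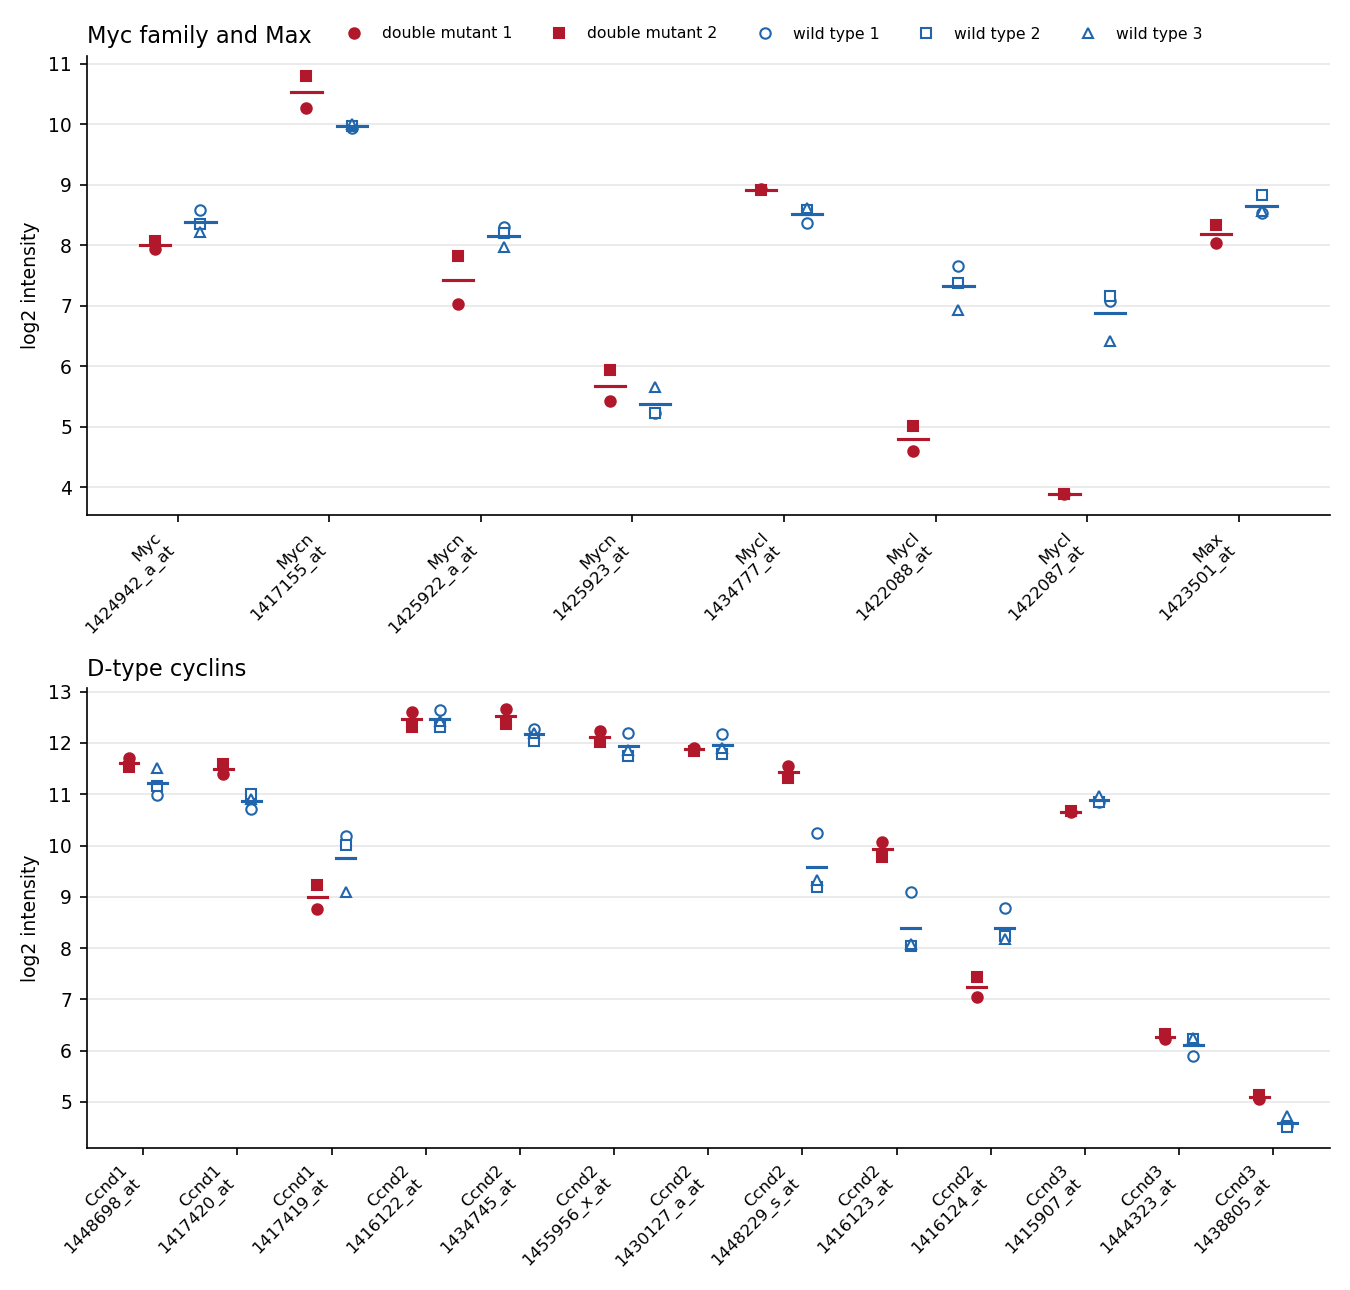
Log2 intensity (vertical axes) of each probe set in each array, double mutant arrays as filled red symbols left of the open blue wild type symbols, with group means as bars. The groups lie far apart on the Mycl probe sets 1422087_at and 1422088_at and on the Ccnd2 probe set 1448229_s_at, and they interleave on 3 of the brighter Ccnd2 probe sets.

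Myc, the founding member of the family, was lower in double mutants on its single probe set, 1424942_a_at. It stood at 7.93 and 8.07 in double mutants, against 8.58, 8.35 and 8.23 in wild type. Each double mutant array lay below each wild type array, by 0.16 at the closest. The difference was −0.38 ± 0.13 (SE, 2 against 3 arrays), and it lay between −0.46 and −0.29 with 1 array left out. With the Gapdh 3' minus 5' difference as a covariate it took the other sign (0.37 ± 0.34).

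Mycn gave no single direction. On its brightest probe set, 1417155_at, it stood at 10.28 and 10.79 in double mutants, against 9.94, 9.97 and 10.001 in wild type, with a difference of 0.56 ± 0.17 (SE). All wild type arrays lay within 0.06 of each other there, below each double mutant array. On 1425922_a_at the order was turned round, with 7.03 and 7.83 in double mutants and 8.31, 8.20 and 7.98 in wild type, and the difference was −0.73 ± 0.27. The suffix _a_at marks a set whose probes are shared by several transcripts of 1 gene. The dimmer set 1425923_at had 5.42 and 5.94 in double mutants and 5.24, 5.23 and 5.66 in wild type, and its groups overlapped.

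The 2 double mutant arrays themselves differed in Mycn. Replicate 2 was brighter than replicate 1 on all 3 probe sets, by 0.51 on 1417155_at, 0.80 on 1425922_a_at and 0.52 on 1425923_at. This gap lies within 1 genotype and bears on how far each Mycn difference depends on 1 array. Without replicate 2 the difference on 1417155_at was 0.31 and without replicate 1 it was 0.82. On 1425922_a_at the matching differences were −1.13 and −0.33. With the Gapdh covariate the difference on 1425922_a_at took the other sign (1.24 ± 0.34, SE) and that on 1417155_at was 1.46 ± 0.50.

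Mycl, a family member found mostly in epithelia, neural tissue and dendritic cells, had the widest differences of the set. On 1422087_at it stood at 3.88 in both double mutant arrays, against 7.08, 7.16 and 6.42 in wild type. On 1422088_at it stood at 4.605 and 5.006 in double mutants, against 7.66, 7.37 and 6.94 in wild type. The double mutant levels on 1422087_at came near that of Trpn, the dimmest bacterial control (3.10 in double mutants, against 3.07 in wild type), so the size of that difference is uncertain. The differences were −3.01 ± 0.26 and −2.52 ± 0.26 (SE), and they stayed at or below −2.87 and −2.32 with any 1 array left out. The third and brightest Mycl set, 1434777_at, pointed the other way, with 8.93 and 8.91 in double mutants and 8.36, 8.58 and 8.62 in wild type. Its groups did not overlap and the difference was 0.40 ± 0.10. With the Gapdh covariate the differences were −2.12 ± 0.97 on 1422087_at, −0.77 ± 0.51 on 1422088_at and −0.005 ± 0.34 on 1434777_at.

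Max, the shared partner, was measured by 1 probe set, 1423501_at. It stood at 8.03 and 8.33 in double mutants, against 8.54, 8.84 and 8.56 in wild type, with a difference of −0.47 ± 0.15 (SE). The groups did not overlap, and the difference lay between −0.62 and −0.32 with 1 array left out. It was 0.06 ± 0.55 with the Gapdh covariate.

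**Figure D2:**
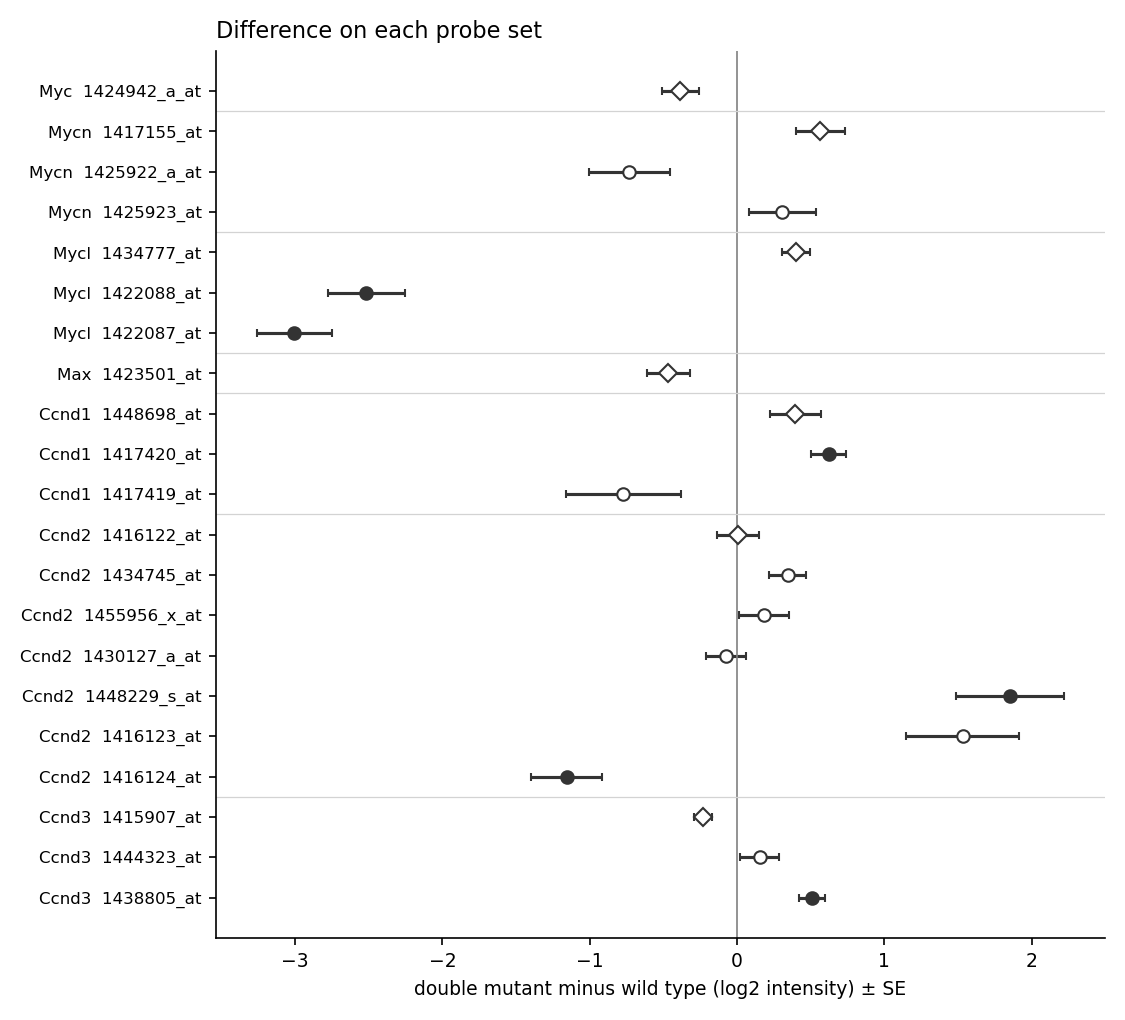
Difference between the genotypes (double mutant minus wild type, log2, horizontal axis) with its SE on each probe set, diamonds for the brightest set of a gene and filled symbols for those called by limma over all probe sets. Mycn, Mycl, Ccnd1, Ccnd2 and Ccnd3 each have probe sets on both sides of 0.

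Ccnd1, the D-type cyclin most often tied to growth factor and Wnt signals, was brighter in double mutants on 2 of its 3 probe sets. On 1417420_at it stood at 11.40 and 11.59 in double mutants, against 10.71, 11.003 and 10.90 in wild type, and the difference was 0.62 ± 0.12 (SE) that was between 0.53 and 0.72 with 1 array left out. On 1448698_at it stood at 11.70 and 11.53 in double mutants, against 10.99, 11.17 and 11.504 in wild type, where wild type replicate 3 came within 0.03 of the lower double mutant array. The difference there was 0.40 ± 0.18. On 1417419_at the values were 8.76 and 9.23 in double mutants and 10.18, 10.01 and 9.10 in wild type. Here wild type replicate 3 fell between the double mutant arrays, and the difference was −0.77 ± 0.39. With the Gapdh covariate 1417420_at kept its sign (0.71 ± 0.50), while 1448698_at (−0.62 ± 0.47) and 1417419_at (1.59 ± 1.01) took the other.

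Ccnd2 divided into 4 probe sets with small differences and 3 with large ones. On 1416122_at it stood at 12.61 and 12.32 in double mutants, against 12.63, 12.31 and 12.43 in wild type, and the difference was 0.00 ± 0.14 (SE). Differences on 1430127_a_at, 1455956_x_at and 1434745_at were −0.08 ± 0.14, 0.18 ± 0.17 and 0.34 ± 0.13, and of these the groups were apart on 1434745_at alone. The suffix _x_at marks a set that holds probes that may match other sequences. The 4 sets thus read differences of at most 0.34 in size.

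The other 3 Ccnd2 probe sets separated the genotypes. On 1448229_s_at the values were 11.55 and 11.33 in double mutants and 10.25, 9.19 and 9.32 in wild type, and the difference was 1.85 ± 0.37 (SE). On 1416123_at they were 10.08 and 9.78 in double mutants and 9.09, 8.04 and 8.07 in wild type, and the difference was 1.53 ± 0.38. Both sets thus had the same order of arrays, with wild type replicate 1 highest and replicate 2 lowest of the wild type arrays. On 1416124_at the direction was reversed, with 7.04 and 7.44 in double mutants against 8.78, 8.23 and 8.19 in wild type, and the difference was −1.16 ± 0.24. With the Gapdh covariate the differences were 2.71 ± 1.5 on 1448229_s_at, 2.37 ± 1.58 on 1416123_at and 0.41 ± 0.53 on 1416124_at, the last with the other sign. The suffix _s_at marks probes shared by more than 1 transcript, which can belong to different genes. Positions of the probes along the transcript were not used here, so whether the sets of Ccnd2 read different ends or forms of it was not tested.

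**Figure D3:**
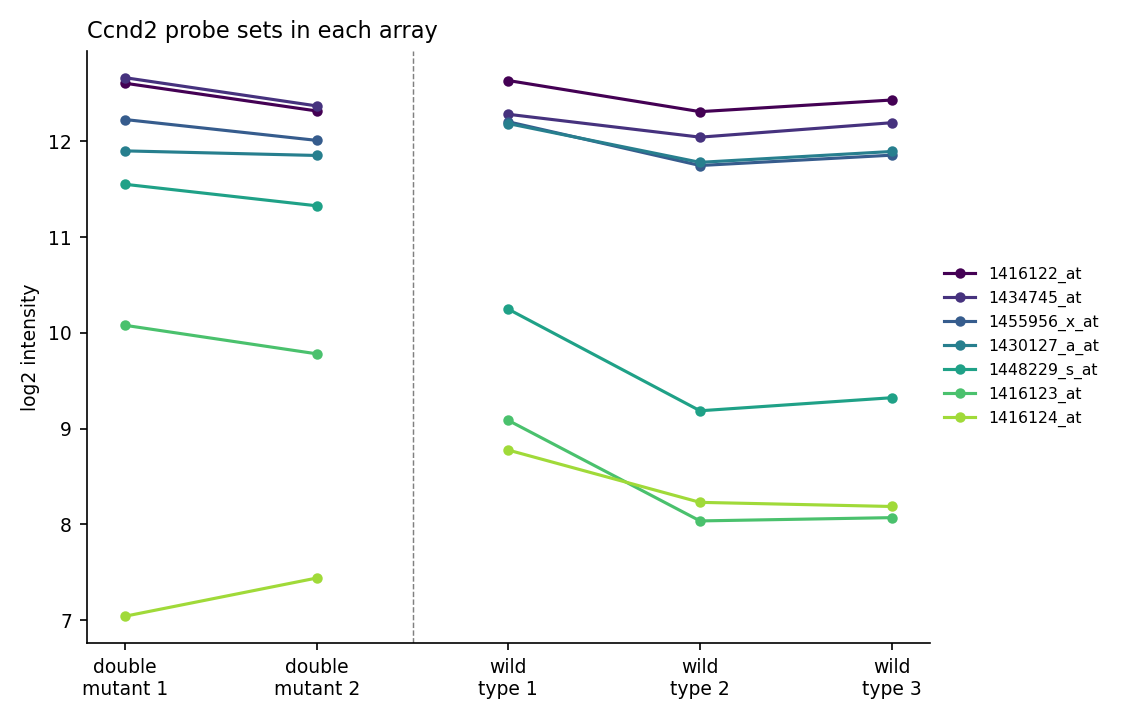
Log2 intensity (vertical axis) of the 7 Ccnd2 probe sets in the 2 double mutant arrays (left) and the 3 wild type arrays (right), with lines that join the values of 1 probe set within a genotype only to keep it traceable. Every set is highest in replicate 1 among the wild type arrays, while 1448229_s_at and 1416123_at lie well above their wild type levels in double mutants and 1416124_at below its own.

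Among the wild type arrays, replicate 1 was the highest on all 7 Ccnd2 probe sets. It exceeded the mean of the other wild type arrays by 0.99 on 1448229_s_at and by 1.03 on 1416123_at, and by 0.16 to 0.57 on the others. Of 97 genes with 7 probe sets, 3 (3.09%) had replicate 1 highest on all of them, Ccnd2, Dtna and the long noncoding RNA gene Malat1, and replicate 1 was the highest of the 3 on 25.1% of all probe sets. The array was singled out after its values were seen, so the share is a description. The same array was the wild type one with bright Xist (12.28 on 1436936_s_at, against 5.73 and 5.70 in wild type replicates 2 and 3) and dim Eif2s3y (3.20, against 8.49 and 8.42, on 1417210_at). The part of sex in the Ccnd2 spread was not tested. In double mutants, replicate 1 was above replicate 2 on 6 of the 7, with 1416124_at the exception.

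Ccnd3, the D-type cyclin best known from lymphoid and muscle cells, had small differences of both signs. On 1415907_at it stood at 10.65 and 10.67 in double mutants, against 10.85, 10.86 and 10.97 in wild type, with a difference of −0.23 ± 0.06 (SE) and no overlap. On the dim set 1438805_at, the only 1 of the 21 under the median level, it stood at 5.06 and 5.14 in double mutants, against 4.54, 4.52 and 4.74 in wild type, and the difference was 0.51 ± 0.09. The groups overlapped on 1444323_at, at 6.22 and 6.33 in double mutants and 5.90, 6.22 and 6.24 in wild type. Wild type replicate 3 was the highest wild type array on all 3 sets, as it was for 108 of 2366 genes with 3 sets (4.56%) and on 34.4% of all probe sets.

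Disagreement between probe sets of 1 gene was common on these arrays, and the 5 genes with several sets were set beside others with as many. The range from the lowest to the highest difference within a gene was 3.01 for Ccnd2, where the median of 97 genes with 7 sets was 2.04. It was 0.74 for Ccnd3, 1.297 for Mycn, 1.40 for Ccnd1 and 3.405 for Mycl, where the median of 2366 genes with 3 sets was 0.63. Of those genes, 97.89% had a range no wider than that of Mycl, and the share was 55.16% for Ccnd3, 74.47% for Mycn and 76.97% for Ccnd1. For Ccnd2 it was 84.54% of the genes with 7 sets. With sets above the median level alone, the medians were 2.86 (23 genes with 7 sets) and 0.92 (1330 genes with 3 sets). The shares on that basis were 65.22% for Ccnd2, 95.86% for Mycl, 63.08% for Mycn and 66.47% for Ccnd1. Mycn, Mycl and Ccnd3 each had at least 1 set with all double mutant arrays above wild type and 1 with all below, as did 550 of the 2366 genes with 3 sets (23.2%). Ccnd2 did so too, the more common outcome with 7 sets (62 of 97 genes, 63.9%).

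**Figure D4:**
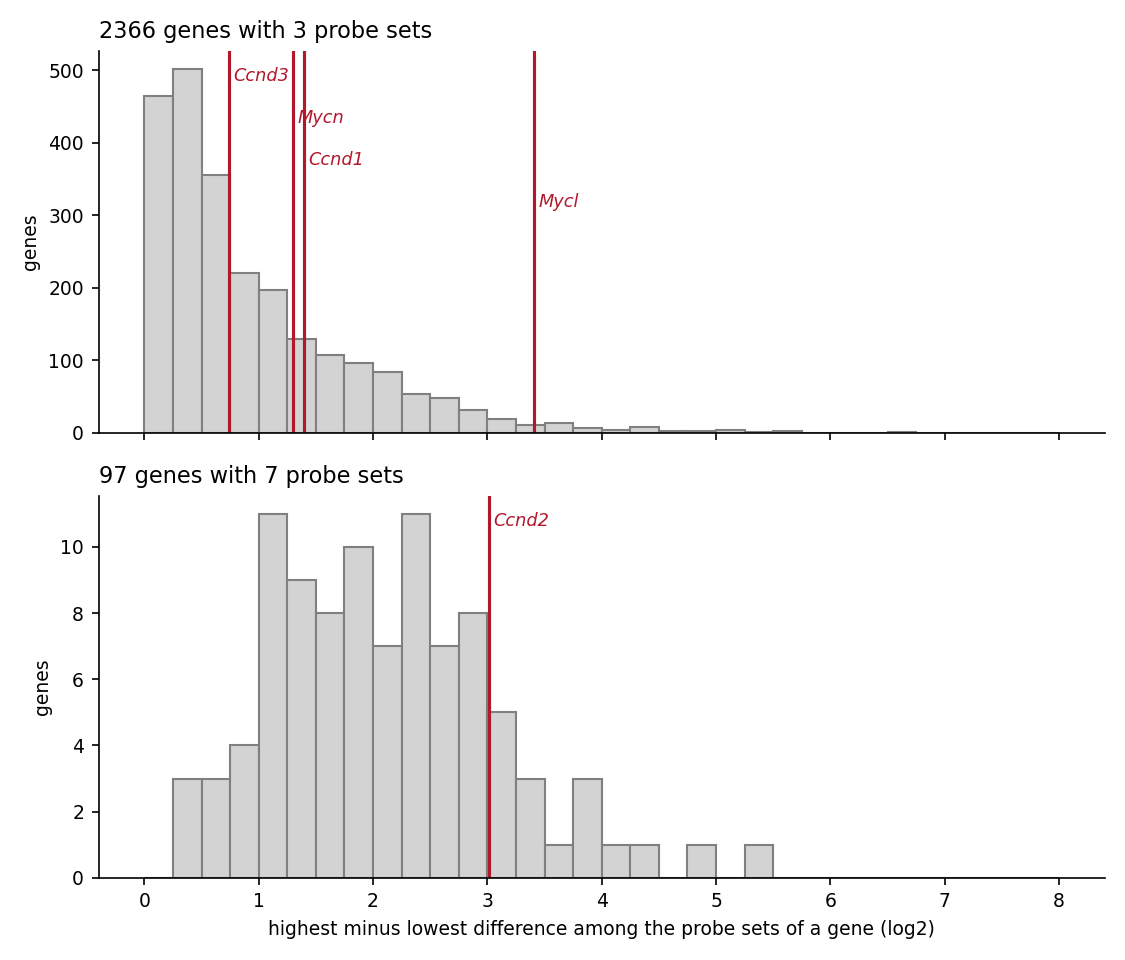
Number of genes (vertical axes) by the range of the differences among their probe sets (log2, horizontal axis), for genes with 3 and with 7 probe sets. Red lines mark Ccnd3, Mycn and Ccnd1 in the bulk of the first distribution, Mycl in its tail at 3.405 and Ccnd2 at 3.01 in the second.

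Markers of cell types were read as summed intensities over their brightest probe sets. Ectoderm markers summed to 3591.6 to 3964.9 in double mutants and 2299.4 to 2393.0 in wild type, and limma called 4 of 6 higher (Epcam, Cdh1, Trp63 and Esrp1). Endothelial markers summed to 1048.5 to 1096.5 in double mutants and 1452.1 to 1533.5 in wild type, with 2 of 5 called lower (Pecam1 and Emcn), while Cdh5, Kdr and Tek differed by −0.06 to −0.03 with overlap. Myogenic markers summed to 743.3 to 786.7 in double mutants and 992.8 to 1130.7 in wild type, with Myod1 alone of 4 called lower (−1.10), Lbx1 at −0.31, Myf5 at 0.05 and Pax3 at 0.79 with the groups apart. Erythroid markers summed to 44196.5 to 49409.6 in double mutants and 50085.1 to 53546.2 in wild type, with 2 of 4 called lower (Alas2 and Hba-x). Macrophage markers summed to 440.3 to 560.4 in double mutants and 629.9 to 722.1 in wild type, with 0 of 4 called. Csf1r differed by −0.63 and Ptprc by −0.21 with the groups apart, while Adgre1 (0.01) and Aif1 (−0.06) overlapped. Sums of limb mesenchyme and of neural crest and Schwann markers overlapped. No marker is at 0 on an intensity array, but Aif1 and Foxd3 were under the median level of the array. The part of tissue composition in the differences of the 7 genes was not tested, and fewer cells of a type cannot be told apart from less RNA per cell.

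The genes that work with Myc and the D-type cyclins were taken from lists, with the brightest probe set of each gene. Over all 18193 genes on this basis, 14.7% were called (6.56% higher and 8.14% lower) and the median difference was −0.02. An unadjusted limma p under 0.05 was reached by 5214 of them. Among 9 partners and competitors of Myc and Max, limma called 0, with 2 at an unadjusted p under 0.05 and a median of −0.04. Mxi1, which competes with Myc for Max, stood at 8.88 ± 0.21 in double mutants, against 9.22 ± 0.03 in wild type (SD, n = 2 and 3, limma adjusted p = 0.107), and its dimmer set 1425732_a_at was called lower (−2.48 ± 0.26, SE, limma adjusted p = 0.0114). Mlxipl, a glucose-responsive partner of Mlx, differed by 0.75 ± 0.23 (limma adjusted p = 0.102) and Mxd3 by 0.22 ± 0.12 (limma adjusted p = 0.292).

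Among 14 G1 kinases, their activators and their inhibitors, 5 fell, 0 rose and 9 were not called, with a median of −0.02. Cdk4, the kinase partner of the D-type cyclins, stood at 12.44 and 12.45 in double mutants, against 12.72, 12.73 and 12.80 in wild type. All arrays of each genotype lay close together, and Cdk4 fell by 0.31 ± 0.05 on the log2 scale (SE, limma adjusted p = 0.0251), with another set also called lower (−0.28). Cdk2, the partner of cyclin E, fell by 0.39 ± 0.06 (limma adjusted p = 0.0187), and Cdkn1c, which encodes the inhibitor p57, fell by 0.30 ± 0.05 (limma adjusted p = 0.0226). Ccnh and Cdk7, subunits of the kinase that activates Cdks, fell by 0.37 ± 0.07 and 0.28 ± 0.06 (limma adjusted p = 0.0377 and 0.0489). Dimmer sets of both went both ways with the groups apart, and none of them was called. Lower were 1418584_at of Ccnh (−0.31 ± 0.09) and 1424257_at and 1458987_at of Cdk7 (−0.63 ± 0.27 and −0.24 ± 0.10). Higher were 1418585_at of Ccnh (0.57 ± 0.16) and 1435299_at and 1439511_at of Cdk7 (0.55 ± 0.16 and 0.97 ± 0.47). The widest difference in the list was that of Cdkn1b, which encodes the inhibitor p27, at 8.36 and 9.15 in double mutants, against 7.70, 7.46 and 7.26 in wild type (1.28 ± 0.29, limma adjusted p = 0.0501). The dimmer Cdkn1b set 1419497_at pointed the other way with overlap (−0.71 ± 0.69, SE). Calls in the list were 2 higher and 4 lower with quantile normalization, and 2 higher and 5 lower among probe sets above the median level. Cdk6, the other D-type cyclin partner, averaged 9.58 in double mutants, against 9.54 in wild type (limma adjusted p = 0.805). Cdkn1b and Cdk6 lay outside the naming rule and were added after their values were seen. The list had 1 call without double mutant replicate 2 and 0 calls without any other 1 of the arrays.

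In the Rb and E2f list 1 of 13 rose and 1 fell, with a median of 0.07. E2f4, a mostly repressive E2f factor, stood at 6.53 ± 0.21 in double mutants, against 7.64 ± 0.11 in wild type (SD, n = 2 and 3), and fell by 1.11 ± 0.12 (SE, limma adjusted p = 0.0123). Tfdp2, a dimer partner of E2f factors, rose by 0.52 ± 0.08 (limma adjusted p = 0.0228), but its other sets were called both ways (−1.005 and 1.63). E2f7, a repressor of the E2f programme, differed by 0.28 ± 0.07 (limma adjusted p = 0.0568). On the 16 dimmer sets of the list, 2 were called higher and 5 lower. The list kept 0 or 1 call with 1 array left out.

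Of 17 E2f target genes, 0 rose and 2 fell, with a median of −0.01. Mcm2, a subunit of the replicative helicase, fell by 0.61 ± 0.08 (SE, limma adjusted p = 0.0154), while its other set differed by 0.06. Cdt1, which loads that helicase, fell by 0.29 ± 0.05 (limma adjusted p = 0.0269). Ccne2, encoding a cyclin E, stood at 9.05 ± 0.32 in double mutants, against 8.33 ± 0.12 in wild type (SD, n = 2 and 3, limma adjusted p = 0.0528). On the 25 dimmer sets of the list, 1 was called higher and 6 lower. The list kept 0 or 1 call with 1 array left out.

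Among 24 genes known as Myc targets, 3 rose, 5 fell and 16 were not called, with a median of 0.01. Nop58, a core protein of small nucleolar particles, stood at 11.78 and 11.84 in double mutants, against 11.002, 10.55 and 10.80 in wild type, and rose by 1.03 ± 0.15 (SE, limma adjusted p = 0.0200). Nop56, its partner, rose by 0.51 ± 0.08 (limma adjusted p = 0.0244), and Odc1, the first enzyme of polyamine synthesis, by 0.35 ± 0.07 (limma adjusted p = 0.0336). These last 2 genes fell outside the naming rule and were added after their values were seen, to complete the count. The falls were those of Polr1b, a subunit of RNA polymerase I (−1.27 ± 0.18), the ribosome assembly gene Bop1 (−0.74 ± 0.08), the translation initiation factor gene Eif4e (−0.65 ± 0.09), the serine hydroxymethyltransferase gene Shmt2 (−0.57 ± 0.07) and Nop16, a nucleolar protein gene (−0.46 ± 0.06), with limma adjusted p from 0.0118 to 0.0200. Shmt2 was also called lower on its 3 other sets, and Eif4e on 1 of 3, whereas a dimmer Bop1 set was called higher (0.92). A dimmer Nop16 set was higher with the groups apart (0.21 ± 0.09) but was not called. On the 32 dimmer sets of the list, 2 were called higher and 8 lower. The 8 calls became 0 without double mutant replicate 1 or wild type replicate 2, 5 without double mutant replicate 2, 3 without wild type replicate 1 and 2 without wild type replicate 3.

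Of 13 genes for the turnover of Myc and D-type cyclin proteins, 0 rose and 1 fell, with a median of 0.04. Aurka, a kinase that shields the Mycn protein from degradation, fell by 0.42 ± 0.09 (SE, limma adjusted p = 0.0440), a call lost without any 1 of the 5 arrays. Skp2, of an SCF ubiquitin ligase, differed by 0.23 ± 0.05 (limma adjusted p = 0.0516) and Gsk3b, which marks Myc and cyclin D1 for degradation, by −0.53 ± 0.13 (limma adjusted p = 0.0670). Dimmer sets of each gene differed among themselves. On Gsk3b 1434439_at the groups were apart in the direction of the brightest set (−0.64 ± 0.15), without a call. The groups overlapped on Gsk3b 1451020_at (−0.15 ± 0.45) and 1437001_at (0.74 ± 0.52). They also overlapped on Skp2 1418969_at (0.14), 1436000_a_at (−0.02) and 1460247_a_at (0.00). Gsk3b was called higher on 1439949_at (2.08 ± 0.22, limma adjusted p = 0.0114) and 1439931_at (1.79 ± 0.32, limma adjusted p = 0.0308), and Skp2 was called higher on 1425072_at (1.57 ± 0.32, limma adjusted p = 0.0415) and lower on 1449293_a_at (−1.98 ± 0.23, limma adjusted p = 0.0130). On the 27 dimmer sets of the list, 8 were called higher and 2 lower.

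**Figure D5:**
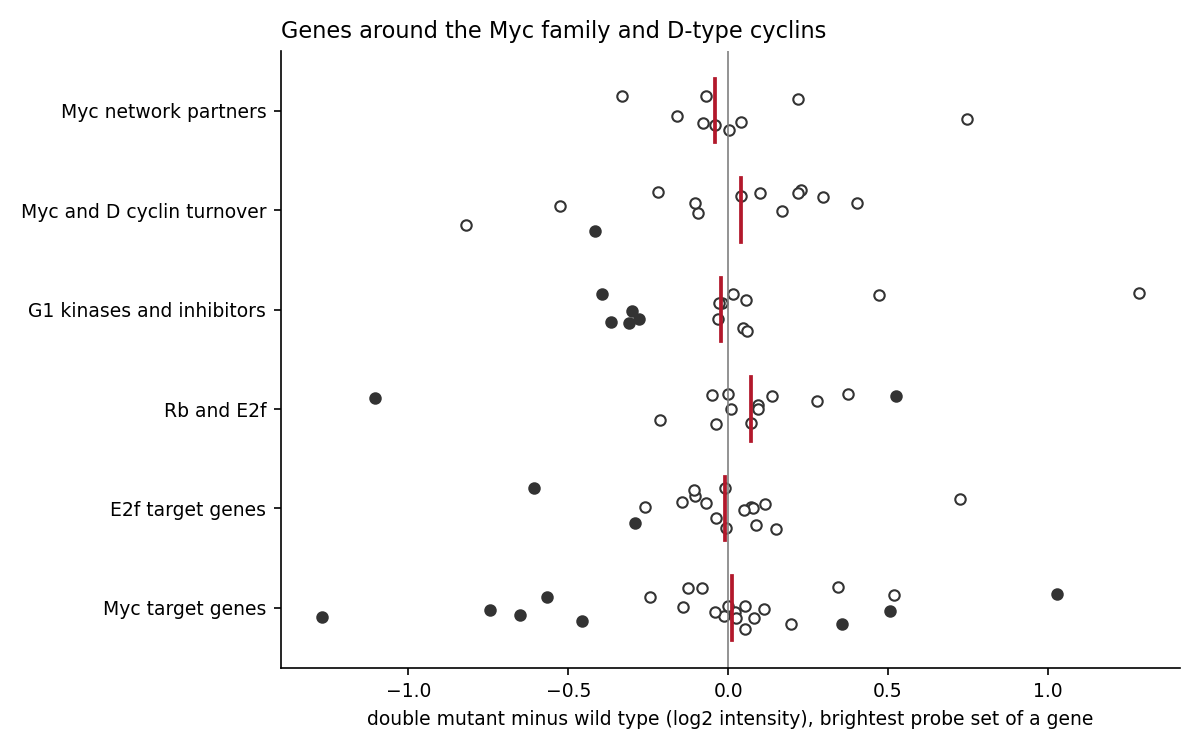
Difference between the genotypes (double mutant minus wild type, log2, horizontal axis) on the brightest probe set of each gene in 6 lists, filled where limma called it, with list medians as red bars (vertical jitter carries no meaning). List medians lie between −0.04 and 0.07, and all called genes among the G1 kinases and inhibitors are on the negative side.

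For each of the 7 genes the pattern over the 5 arrays on its brightest set was compared with those of 11537 genes above the median level, by Euclidean distance between log2 profiles centred on their own means. The closest profiles were those of Six4 and Mrpl50 to Myc (distances 0.10 and 0.10), Fam174a and Mkrn3 to Mycn (0.06 and 0.08), and Rflnb and Cdv3 to Mycl (0.06 and 0.06). Draxin and Cacna1b lay closest to Max (0.05 and 0.07), Tmcc3 and Rere to Ccnd1 (0.11 and 0.11), Exoc4 and Pak7 to Ccnd2 (0.12 and 0.12), and Usp21 and Nt5c3 to Ccnd3 (0.02 and 0.03). Fam174a, closest to Mycn, stood at 9.32 and 9.87 in double mutants, against 9.03, 9.05 and 9.13 in wild type, and so shared the gap between the double mutant arrays. With 5 arrays and so many genes, close profiles are common, and these names are a description only.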

How the data were processed

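The deposited table gave linear intensities for each probe set. RMA and limma are named in the submitters' processing notes, with neither version nor role, and other settings are not given in the sources used here. Per the labels' protocols, a 2-cycle kit was used for biotin labelling. After 64 control probe sets of the manufacturer were removed from the 45101 deposited, log2 was taken, with no further normalization or filter. Limma 3.58.1 in R 4.3.3 was fitted to 45037 probe sets with 1 mean per genotype, and p-values were two-sided and Benjamini-Hochberg adjusted over all of them, with calls at an adjusted p under 0.05. Differences carry limma's standard error, and 5 arrays limit the precision. The fit was tested on simulated data.

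The 7 genes and all lists were chosen with earlier results of these data known. Named genes were every probe set of the 7, in each list the 3 genes of smallest p and up to 6 called ones, and the 2 nearest profiles per gene. Cdk6, Cdkn1b, Nop56 and Odc1 were added after their values were seen. Symbols came from the platform annotation (34945 probe sets with 1 symbol, 932 with several, 9160 with none). Alternatives covered scaling, a level filter, a pseudocount of 16, the variance model, a replicate block, a Gapdh covariate and leaving out each array.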

Additional observations from a re-analysis of the deposited data

Results flagged for a closer look

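Spike-in controls, which lie outside the comparison, carried signal in double mutants above the wild type level. Dap averaged 7.09 in double mutants and 3.30 in wild type (log2 intensity), Phe 5.35 and 3.54, Thr 5.23 and 3.50, and Lys 4.86 and 3.31. On each of these 4 both double mutant arrays lay above all wild type arrays. The part of sample preparation in the differences of the Myc and cyclin genes was not tested.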

How the results depend on the processing

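With 1 array left out, calls ran from 0 to 5108 over all probe sets (8206 with all arrays), 0 to 4 on the 21 probe sets, 0 to 1 for Myc partners, 0 to 0 for turnover, 0 to 1 each for the G1, Rb and E2f, and E2f target lists, and 0 to 5 for Myc targets. The replicate numbers share no stated litter or batch. Deviations from the genotype mean correlated at 0.09 between the arrays numbered 1 and at 0.12 between those numbered 2. Deviations of the 2 double mutant arrays are equal and opposite by construction, so these values say little about pairing. A replicate block left 2351 calls over all probe sets, 1 on the 21 (Mycl 1422087_at), and 0 in each list. A Gapdh 3' minus 5' covariate, which tracks genotype closely over the 5 arrays (r = 0.96), left 0 limma calls anywhere, with 4259 probe sets at an unadjusted p under 0.05. Under it 11 of the 21 differences took the other sign, among them those of Myc and Max and, of the called sets, Ccnd2 1416124_at (0.41 ± 0.53, SE), and the cause was not tested. With the mean of all probe sets of a gene, calls were 3 for Myc partners, all lower, and 2 for turnover, both higher. The 1 turnover call on the brightest sets was lower. Under the same mean, calls were 7 for Rb and E2f (3 higher and 4 lower) and 7 for E2f targets (2 higher and 5 lower). Turnover calls were 3 with equal medians, 3 with the level filter, and 2 each with quantile normalization, a pseudocount or a trended variance. Under scaling, filter, pseudocount and variance alternatives the 21 probe sets had 6 or 7 calls, though not on the same sets. Ccnd3 1438805_at lost its call with equal medians and with quantile normalization, and the filter removed that set. Ccnd2 1416123_at gained a call in all of these settings but the pseudocount. Myc 1424942_a_at gained a call with equal medians, Mycl 1434777_at with the filter and Ccnd3 1415907_at with the pseudocount. Of 251 alternative differences, 224 moved by less than the spread between arrays. The level filter and the variance model cannot change a difference, so their share of the 224 was fixed in advance.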
